A study of Mus musculus with 4 samples.

Results

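Higher levels in TIF1a-deficient than in wild-type macrophages, both with and without IL-4, mark the 9 genes described here: Slpi, Colec12, Wfs1, Penk, Fstl1, Flt1, Zfp972, Gm12505 and Wdr92. They, of 16403 genes listed over all libraries, were chosen by that genotype difference, so the ratio of knockout to wild-type is given for each of them as a description and carries no test. The response to IL-4 within each genotype was not the measure that chose them and was tested. It rests on the same library values, so it is not independent of that choice.

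The cells were thioglycolate-elicited peritoneal macrophages of C57BL/6 mice, which had adhered for 4 h and were starved in medium with 0.5% FBS. Wild-type mice, described as littermates in the study's methods, were compared with mice lacking TIF1a in myeloid cells, in which LysM-Cre deletes a floxed Trim24 allele (Trim24 is the gene symbol of TIF1a). The methods also state that the floxed line had been backcrossed to C57BL/6 for at least 6 generations. Cells of each genotype were left untreated or received mouse IL-4 at 20 ng/mL for 6 h. Each of the 4 groups was 1 library, so no value has a replicate check. LysM-Cre is inserted in the Lyz2 gene and acts in myeloid cells, including macrophages and neutrophils. Whether the wild-type mice carried Cre, and how many mice gave cells to a library, was not given in the sources used here, so that loss of TIF1a, carriage of Cre and differences between individual mice cannot be told apart in these libraries.

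TIF1a is a chromatin reader and E3 ubiquitin ligase that binds nuclear receptors, among them the retinoic acid receptors, and can repress their target genes. IL-4 acts through the transcription factor Stat6 and moves macrophages toward the M2 state. The 9 genes have no common pathway. Slpi, Fstl1 and Penk encode secreted products, Colec12 and Flt1 encode cell surface receptors, Wfs1 encodes a membrane protein of the endoplasmic reticulum, Wdr92 encodes a cytoplasmic adaptor of chaperone complexes, Zfp972 encodes a predicted zinc finger protein and Gm12505 is a long noncoding RNA.

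The genes also lay apart on the genome. In GRCm38 coordinates, Slpi spans chr2:164354070-164356507 and Zfp972 spans chr2:177903064-177925650, both on the minus strand. Wfs1 (chr5:36966104-36988982) and Flt1 (chr5:147561604-147726438) are on the minus strand of chromosome 5. Penk (chr4:4133536-4138815) and Gm12505 (chr4:55410443-55418842) are on the minus strand of chromosome 4. Fstl1 (chr16:37777055-37836516) and Wdr92 (chr11:17211893-17235200) are on plus strands. None of the 9 lies on chromosome 6, which holds the floxed Trim24 gene, or on chromosome 10, which holds Lyz2 and therefore the Cre insertion. Whether chromosome position or strain background bears on the ratios was not tested.

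RefSeq promoter sequences of build GRCm38.p6 matched 7 of the 9 genes, all but Colec12 and Penk. The stretches of Slpi, Wfs1, Gm12505 and Wdr92 are printed because they differ widely in base composition although the genes were chosen for one direction. Each is the stretch of 250 bases before the annotated transcript start, written 5′ to 3′ on the strand of the gene, with every CpG dinucleotide in capitals.
Slpi, chr2:164356508-164356757, minus strand: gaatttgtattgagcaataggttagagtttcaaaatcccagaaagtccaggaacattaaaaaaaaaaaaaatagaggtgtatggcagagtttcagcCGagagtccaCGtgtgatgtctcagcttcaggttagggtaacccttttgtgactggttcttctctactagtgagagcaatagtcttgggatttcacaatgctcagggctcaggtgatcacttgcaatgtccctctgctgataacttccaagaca
Wfs1, chr5:36988983-36989232, minus strand: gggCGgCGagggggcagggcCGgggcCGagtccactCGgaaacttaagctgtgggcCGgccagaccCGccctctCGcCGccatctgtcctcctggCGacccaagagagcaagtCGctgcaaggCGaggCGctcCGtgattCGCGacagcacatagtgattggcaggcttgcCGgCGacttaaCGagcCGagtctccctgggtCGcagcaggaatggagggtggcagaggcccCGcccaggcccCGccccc
Gm12505, chr4:55418843-55419092, minus strand: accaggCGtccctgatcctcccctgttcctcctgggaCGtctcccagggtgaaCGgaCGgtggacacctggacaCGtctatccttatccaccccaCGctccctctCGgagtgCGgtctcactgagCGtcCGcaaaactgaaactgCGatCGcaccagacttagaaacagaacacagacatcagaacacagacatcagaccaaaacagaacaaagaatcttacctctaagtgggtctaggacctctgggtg
Wdr92, chr11:17211643-17211892, plus strand: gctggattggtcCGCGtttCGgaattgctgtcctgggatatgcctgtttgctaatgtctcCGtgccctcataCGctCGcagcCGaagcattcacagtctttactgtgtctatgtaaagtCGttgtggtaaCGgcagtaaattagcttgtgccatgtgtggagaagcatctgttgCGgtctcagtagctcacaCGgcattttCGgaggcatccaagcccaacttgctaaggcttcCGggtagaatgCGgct

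The Slpi stretch was 42% G or C with 2 CpG, while the Wfs1 stretch was 69.6% G or C with 23 CpG. Gm12505 and Wdr92 lay between them, at 54.8% with 12 CpG and 51.6% with 14 CpG. Among the others, Fstl1 (68%, 16 CpG) and Flt1 (70.4%, 23 CpG) resembled Wfs1, and Zfp972 (50.4%, 4 CpG) was closer to Slpi in CpG. Over 27025 promoters outside chromosome 18 the quartiles were 44.8%, 52.0% and 60.8% G or C and 2, 6 and 16 CpG. The 7 genes thus ran from below the lower quartile of G or C to above the upper one. On both strands 3 motifs were searched: the Stat6 palindrome of TTC and GAA with 4 bases of any kind between them, the nuclear receptor motif AGGTCA, and the AP-1 motif TGACTCA. None of the 7 stretches held any of them, while 5.86%, 13.8% and 4.43% of these 27025 promoters held the respective motif. These letters are therefore not in these windows, and no other window was searched.

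The libraries were closely matched in depth. Wild-type libraries held 11035641 and 11250099 expected reads without and with IL-4, TIF1a-deficient libraries held 11029779 and 11026033, and 3 reads, the limit that a count of 0 allows, corresponded to 0.267 to 0.272 counts scaled to the library total (CPM). Levels are given in FPKM, a scale that corrects for transcript length and library total, and all intervals are exact 95% intervals that cover counting error only. Trim24 checked the genotype labels: it was listed at 2.55 FPKM in untreated and 1.48 FPKM in IL-4-treated wild-type cells, against 0.06 and 0.14 FPKM in TIF1a-deficient cells (175, 103, 4 and 10 reads). Lyz2, the lysozyme gene that carries Cre, was listed at 11289 and 10811 FPKM in wild-type and 5193 and 4761 FPKM in TIF1a-deficient cells.

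Of the secreted products, Slpi is an inhibitor of neutrophil elastase and other serine proteases, made by epithelia and by macrophages, where it dampens inflammatory signalling. It was listed at 23.66 FPKM in untreated and 19.23 FPKM in IL-4-treated wild-type cells, and at 71.57 and 79.71 FPKM in the corresponding TIF1a-deficient cells, from 228, 189, 689 and 767 reads. Both TIF1a-deficient libraries lay above both wild-type libraries, an order that the choice of the genes favours. How many of all genes share that order was not counted. The ratio of knockout to wild-type was 3.02 (2.6 to 3.53) without IL-4 and 4.15 (3.53 to 4.88) with IL-4.

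Fstl1, a secreted glycoprotein of the follistatin family that can bind bone morphogenetic proteins, was listed at 29.12 and 20.66 FPKM in untreated and IL-4-treated wild-type cells and at 67.89 and 50.27 FPKM in TIF1a-deficient cells (1169, 846, 2723 and 2015 reads). As for Slpi, both TIF1a-deficient libraries were the highest. Unlike Slpi, which was higher with IL-4 in TIF1a-deficient cells, Fstl1 was lower with IL-4 in each genotype. The ratios of knockout to wild-type were 2.33 (2.18 to 2.5) and 2.43 (2.24 to 2.64). Fstl1 is also made by fibroblasts. The 6 fibroblast markers (Col1a1, Col1a2, Col3a1, Dcn, Lum and Pdgfra) summed to 45.9 and 38.9 FPKM in wild-type and to 23.3 and 43.2 FPKM in TIF1a-deficient cells. Single markers differed with IL-4, from Col1a1 at 8.46 FPKM in wild-type and 15.38 FPKM in TIF1a-deficient cells (log2 ratio of 0.85) to Dcn at 13.6 and 8.94 FPKM (-0.60). Dcn was lower by more than 1.5-fold without IL-4 as well (-0.85). The part of fibroblasts in the level of Fstl1 was not tested.

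Penk encodes proenkephalin, the precursor of the enkephalin opioid peptides, and had the lowest mean level next to Flt1. It was not detected in untreated wild-type cells and had 3 reads (0.19 FPKM) in IL-4-treated wild-type cells, against 83 reads (5.26 FPKM) and 147 reads (9.32 FPKM) in TIF1a-deficient cells. All but 3 of its reads were therefore in the TIF1a-deficient libraries. Set against a floor of 3 reads in the wild-type library, the level without IL-4 was 27.7-fold higher in TIF1a-deficient cells. The exact interval of the untreated ratio had a lower limit of 22 and no upper limit. With IL-4 the ratio was 49.1 (16.8 to 245).

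Of the receptors, Colec12 (chromosome 18) is a membrane-bound collectin that acts as a scavenger receptor for microbes and oxidized lipoprotein. It was listed at 20.84 and 16.22 FPKM in untreated and IL-4-treated wild-type cells and at 63.16 and 47.94 FPKM in TIF1a-deficient cells, from 769, 611, 2330 and 1767 expected reads. As for Fstl1, the 2 TIF1a-deficient libraries were the highest and IL-4 libraries were the lower ones within a genotype. The ratios of knockout to wild-type were 3.03 (2.79 to 3.29) without and 2.96 (2.69 to 3.24) with IL-4.

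Flt1, the vascular endothelial growth factor receptor VEGFR1, which is carried by endothelium and by monocytes and macrophages, had a different order of levels. It was listed at 0.11 FPKM (8 reads) and 0.44 FPKM (31 reads) in untreated wild-type and TIF1a-deficient cells and at 3.09 FPKM (221 reads) and 10.08 FPKM (706 reads) with IL-4. The IL-4-treated wild-type library was 6.99-fold (4.79 to 10.5) above the untreated TIF1a-deficient library in CPM, so the genotypes overlapped over the 4 libraries. The ratio of knockout to wild-type in CPM was 3.88 without IL-4, with a wide interval (1.74 to 9.76) from few reads, and 3.26 (2.8 to 3.81) with IL-4. Of 6 endothelial markers, Tek and Emcn had no reads in any library, Pecam1 reached at most 0.44 FPKM, Cdh5 at most 0.11 FPKM and Kdr at most 2.8 FPKM. Vwf was listed at 12.23 and 9.97 FPKM in wild-type and 12.74 and 15.3 FPKM in TIF1a-deficient cells, with log2 ratios of knockout to wild-type of 0.06 and 0.61, the second (with IL-4) above 1.5-fold. The part of endothelial cells in the level of Flt1 was not tested.

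Wfs1 encodes wolframin, an endoplasmic reticulum membrane protein that takes part in calcium handling and in restraining the stress response of that organelle. It was the most abundant of the 9 genes, at 61.38 and 96.57 FPKM in untreated and IL-4-treated wild-type cells and 186.47 and 253.6 FPKM in TIF1a-deficient cells (2433, 3904, 7385 and 10038 reads). The untreated TIF1a-deficient library lay above the IL-4-treated wild-type library by 1.93-fold (1.86 to 2.01) in CPM. The ratio of knockout to wild-type was 3.04 (2.9 to 3.18) without and 2.63 (2.53 to 2.72) with IL-4. Wfs1 stood at percentile 93.3 of all listed genes in untreated wild-type cells and at 98.4 in IL-4-treated TIF1a-deficient cells.

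Wdr92 encodes a WD-repeat protein that associates with the R2TP and prefoldin-like cochaperone complex, which assembles large protein machines such as RNA polymerase, and that takes part in assembling axonemal dynein. Its levels were 16.49 and 20.36 FPKM in wild-type and 36.94 and 55.53 FPKM in TIF1a-deficient cells, without and with IL-4 (629, 792, 1408 and 2115 reads). Here too both TIF1a-deficient libraries were the highest. Its ratio of knockout to wild-type was 2.24 (2.04 to 2.46) without IL-4, the smallest of the 9, and 2.73 (2.51 to 2.96) with IL-4.

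Gm12505, a long noncoding RNA of unknown function, was listed at 31.86 and 46.86 FPKM in wild-type and 122.51 and 202.11 FPKM in TIF1a-deficient cells (258, 387, 991 and 1634 reads). Next to Penk it had the largest ratio of knockout to wild-type with IL-4, 4.31 (3.85 to 4.83), with an interval that overlapped that of Slpi, and its ratio without IL-4 was 3.85 (3.35 to 4.42). Zfp972 followed the same order of libraries, at 41.39 and 51.73 FPKM in wild-type and 107.5 and 164.52 FPKM in TIF1a-deficient cells (394, 502, 1022 and 1563 expected reads). Its ratios were 2.6 (2.31 to 2.92) and 3.18 (2.87 to 3.52).

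**Figure D1:**
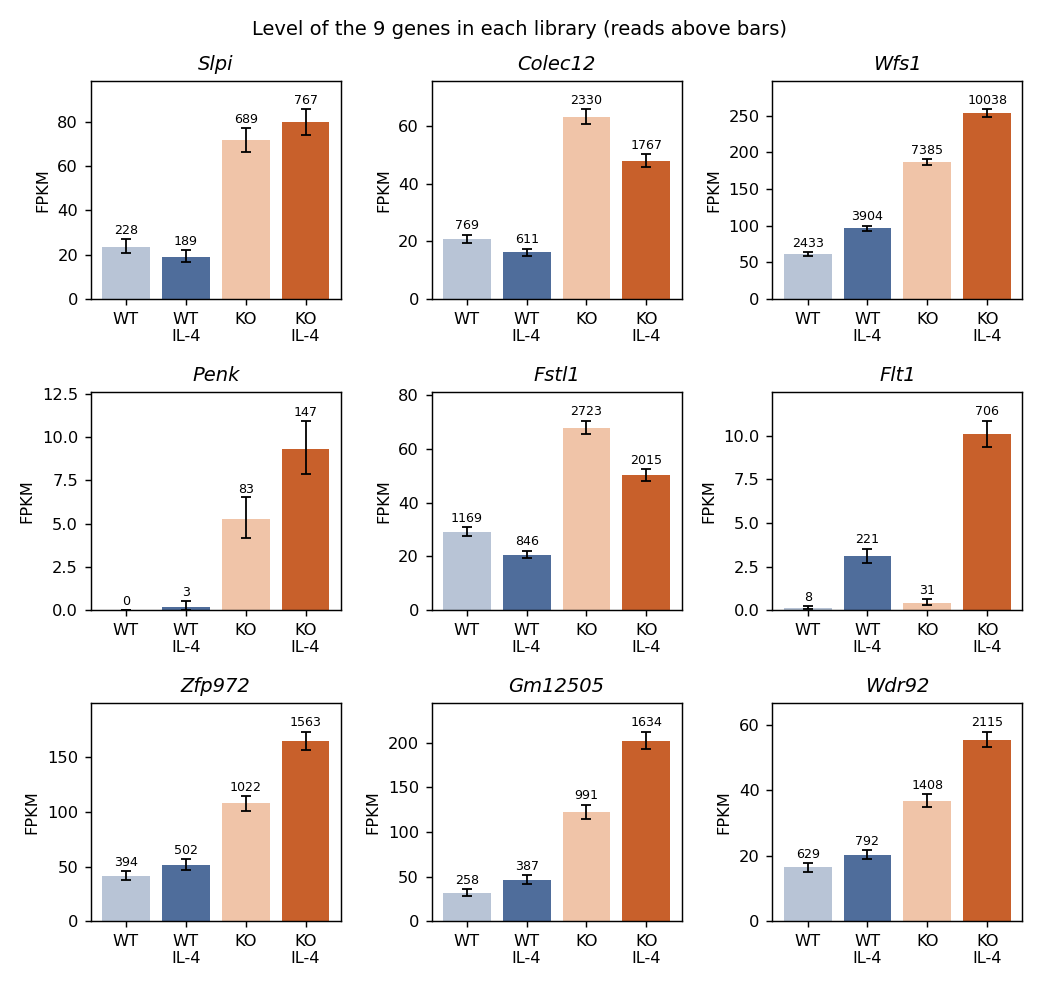
Level of each of the 9 genes in FPKM (vertical axis, linear, a separate scale for each gene) in the 4 libraries, with WT for wild-type and KO for TIF1a-deficient. Bars are single libraries, error bars are exact 95% counting intervals and the number above each bar is its reads; the genes were chosen for higher KO bars within each treatment, and for Flt1 the WT IL-4 bar (221 reads) stands above the untreated KO bar (31 reads).

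Read support differed across the group. The 4 libraries gave Wfs1 at least 2433 reads each, while Penk rested on 0 to 147 reads and Flt1 on 8 to 706. Reads shared with near-identical transcripts are divided among genes by the quantification, and this touched the genes unequally. No 50-base window of the GENCODE transcript of Slpi, Wfs1, Fstl1, Flt1 or Wdr92 occurred in a transcript of another gene. The share of such windows was 2.97% for Gm12505, 5.05% for Colec12 and 7.71% for Penk, in the latter shared with A830012C17Rik, for which no reads were listed. For Zfp972 the share was 48.4%, mainly with Gm15280, so its level and ratio are uncertain. The GENCODE transcript scanned could differ in length from the quantified transcript, at 2002 against 3431 bases for Wdr92 and 8024 against 3322 for Colec12. Wfs1, with no shared window, still had an expected count of 3904.4 in IL-4-treated wild-type cells. The scan therefore cannot exclude shared reads.

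Of the 12495 genes with at least 10 reads over the untreated pair, 3.41% were higher in TIF1a-deficient cells by more than 1.5-fold on the log2(FPKM + 0.1) scale, as were 7.04% of 12483 genes in the IL-4 pair. The 9 genes were above that fold in both pairs, which follows from how they were chosen, and were 9 of 148 such genes, 1.22% of 12146. A further 113 genes (0.93%) were lower by more than 1.5-fold in both. Their log2 ratios had a median of 1.59 without IL-4 (range 1.16 to 5.74) and of 1.67 with IL-4 (range 1.28 to 5.02), against -0.010 and 0.021 over all genes with at least 10 reads in the pair. In FPKM the difference between the genotypes was largest for Wfs1, at 125 without and 157 with IL-4, followed by Gm12505 (90.7 and 155) and Zfp972 (66.1 and 113). It was smallest for Flt1 without IL-4 (0.33) and was 6.99 for Flt1 with IL-4. Over 10443 genes the ratio of knockout to wild-type also rose with transcript length, more so with IL-4 (Spearman rho of 0.518) than without (0.129). The shares past 1.5-fold above and the ratios of list genes and markers below were not corrected for this trend.

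**Figure D2:**
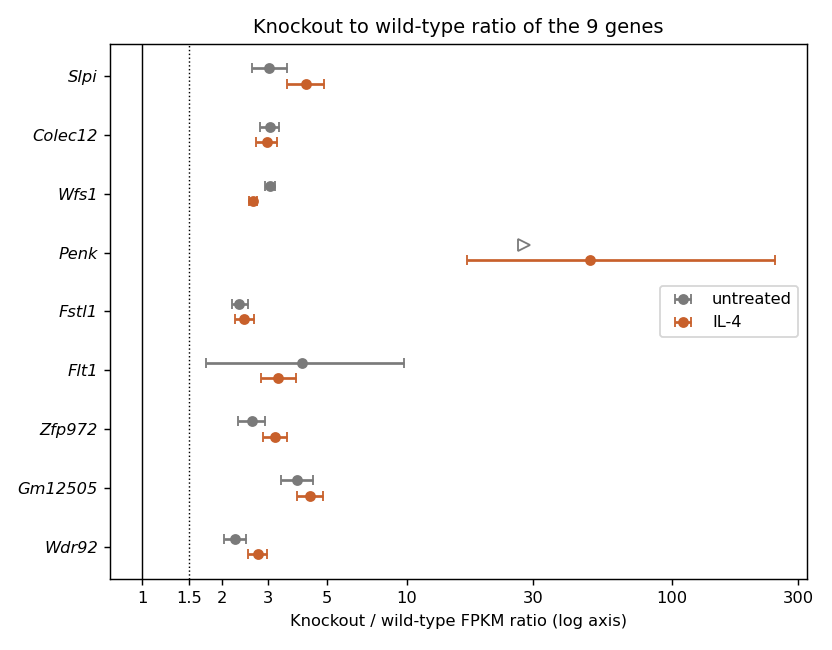
Ratio of TIF1a-deficient to wild-type level (horizontal log axis) for the 9 genes, untreated in grey and with IL-4 in orange, with exact 95% counting intervals as bars. The open triangle is untreated Penk set against a floor of 3 reads (27.7), for which the exact lower limit was 22. The solid line marks 1 and the dotted line marks 1.5. All points lie to the right of 1.5 because the genes were chosen by this ratio.

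The genes with the most similar pattern were found by ranking the 10112 genes with at least 30 reads in each TIF1a-deficient library by the smaller of their log2 ratios of knockout to wild-type. The 9 genes took ranks 3 (Penk), 6 (Gm12505), 7 (Slpi), 8 (Colec12), 13 (Wfs1), 14 (Zfp972), 15 (Flt1), 17 (Fstl1) and 21 (Wdr92). The highest 8 others were Ubb-ps, Tmem254b, Cldn23, Ankrd37, Gm14308, Gm4724, Gm14434 and Shmt1. Ubb-ps, a ubiquitin pseudogene, had log2 ratios of 7.14 without and 10.42 with IL-4, and Tmem254b, which has near-identical copies, had 7.73 and 5.79. Gm14308, Gm4724 and Gm14434, which like Zfp972 are on chromosome 2, shared the same values (0.94, 0, 2.77 and 2.71 FPKM) and cannot be separated as genes.

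Cldn23, a tight junction claudin, had 10 and 7 reads in wild-type and 90 and 71 reads in TIF1a-deficient cells, and Ankrd37, an ankyrin-repeat protein, had 8, 7, 34 and 59 reads. Shmt1, the cytosolic serine hydroxymethyltransferase of one-carbon metabolism, had 19, 10, 54 and 40 reads. These 3 genes thus had fewer reads in every library than Slpi. Between Fstl1 and Wdr92 in the order stood Gpr35, Gm20362 and F13a1, with smaller log2 ratios of 1.21, 1.21 and 1.18, and just below Wdr92 (1.16) stood Arfgef3 (1.11) and the mast cell protease Cpa3 (1.02).

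Each genotype was then compared with and without IL-4. Calls required an adjusted p under 0.05 in a two-sided Fisher's exact test on the reads, with Benjamini-Hochberg adjustment over all genes with a read, and more than a 1.5-fold difference on the log2(FPKM + 0.1) scale. This test compares 2 libraries, not the conditions. The ratio of IL-4-treated to untreated level fell with transcript length, with a Spearman rho of -0.372 in wild-type and -0.109 in TIF1a-deficient cells. Higher calls with IL-4 made up 4.91% of 15593 genes in wild-type cells, and lower calls 7.88%. In TIF1a-deficient cells the shares were 5.29% and 4.03% of 15738 genes. Of the 9 genes, 2 were called higher in wild-type cells (Wfs1 and Flt1), 5 were called higher in TIF1a-deficient cells (Penk, Flt1, Zfp972, Gm12505 and Wdr92) and 0 were called lower in either. The median log2 response of the 9 genes was 0.32 in wild-type and 0.59 in TIF1a-deficient cells, against -0.026 and 0.003 over all genes with at least 10 reads in the pair.

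Flt1 had by far the largest response. It rose 28.1-fold (13.5 to 63.6) in wild-type cells, from 8 to 221 reads, with a log2 ratio of 3.93 ± 0.50 (counting SE) and an adjusted p of 9.8e-53 by Fisher's exact test. In TIF1a-deficient cells it rose from 31 to 706 reads, 22.9-fold (15.9 to 33.8), with a log2 ratio of 4.24 ± 0.26 (adjusted p = 1.0e-165, Fisher's exact test). The intervals of the folds overlapped, and the difference between the genotypes was not tested.

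Wfs1 rose 1.57-fold (1.5 to 1.66) in wild-type cells (adjusted p = 4.1e-69, Fisher's exact test). In TIF1a-deficient cells its ratio was 1.36 (1.32 to 1.4), with an adjusted p of 1.7e-88 in Fisher's exact test but a fold below 1.5, so it was not called there. Gm12505 showed the opposite arrangement, with a ratio of 1.47 (1.25 to 1.73, adjusted p = 9.4e-06, Fisher's exact test) in wild-type cells that missed the fold and a rise of 1.65-fold (1.52 to 1.79, adjusted p = 6.1e-35) in TIF1a-deficient cells. That Gm12505 was called in one genotype does not show a difference between the genotypes, since the intervals overlapped.

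Zfp972 had a ratio of 1.25 (1.09 to 1.43) with IL-4 in wild-type cells and rose 1.53-fold (1.41 to 1.66) in TIF1a-deficient cells (adjusted p = 0.0039 and 3.5e-25, Fisher's exact test). With the trend of the ratio over transcript length removed, the wild-type log2 ratio of Zfp972 was 0.17 and no longer passed the adjusted p (0.22 by an exact binomial test, range over the alternatives 0.0011 to 0.22). Wdr92 had ratios of 1.23 (1.11 to 1.37) and 1.5 (1.4 to 1.61), the second just past the fold required (adjusted p = 0.00039 and 2.0e-31, Fisher's exact test). With that trend removed, or with a pseudocount of 1 FPKM, the log2 ratio of Wdr92 in TIF1a-deficient cells was 0.58 and it was no longer called. Penk rose 1.77-fold (1.34 to 2.35) in TIF1a-deficient cells, from 83 to 147 reads (adjusted p = 0.00017, Fisher's exact test). In wild-type cells the 0 and 3 reads of Penk could not show a response (adjusted p = 0.44, Fisher's exact test).

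Colec12 and Fstl1 were lower with IL-4 in both genotypes by less than the fold required. For Colec12 the ratios were 0.778 (0.7 to 0.868) in wild-type and 0.759 (0.713 to 0.807) in TIF1a-deficient cells (adjusted p = 2.5e-05 and 2.9e-17, Fisher's exact test). For Fstl1 they were 0.709 (0.649 to 0.776) and 0.74 (0.698 to 0.784), with adjusted p of 2.8e-13 and 2.0e-23 in Fisher's exact test. Slpi was not past the adjusted p in either genotype, with a ratio of 0.813 (0.667 to 0.99, adjusted p = 0.095) in wild-type and 1.11 (1 to 1.24, adjusted p = 0.13) in TIF1a-deficient cells by Fisher's exact test. With the length trend removed its wild-type log2 ratio was -0.45 (adjusted p = 0.0067 by an exact binomial test, range over the alternatives 0.0067 to 0.17), still short of the fold required. Of the 9 genes, only Slpi had ratios on different sides of 1 in the genotypes.

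**Figure D3:**
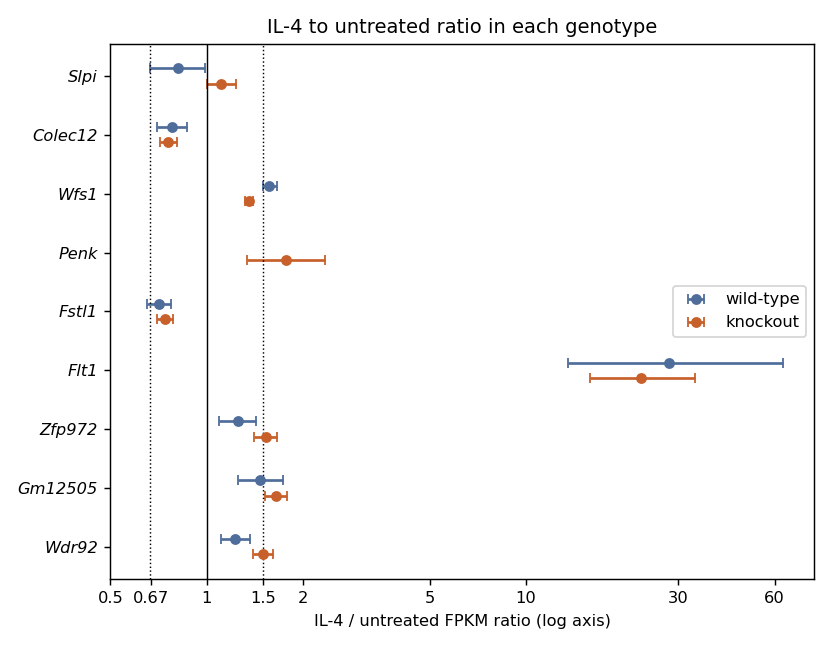
Ratio of the IL-4-treated to the untreated level (horizontal log axis) for the 9 genes in wild-type (blue) and TIF1a-deficient (orange) cells, with exact 95% counting intervals as bars. The dotted lines mark a 1.5-fold difference in either direction, and wild-type Penk (0 and 3 reads) is left out; Flt1 stands apart at 28.1 and 22.9, and Colec12 and Fstl1 lie below 1 in both genotypes.

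Genes that work with each of the 9 were listed for comparison and used where their mean was at least 0.5 FPKM. None of the lists around Slpi, Colec12, Wfs1, Penk, Fstl1, Flt1 and Wdr92 held another gene past 1.5-fold the same way in both genotype pairs. Such genes were also rare among all 12146 genes compared, at 1.22% higher and 0.93% lower, so none in these short lists is near that share. For Slpi, its main protease targets Elane, Ctsg and Prtn3 had at most 3 reads in a library. Wfdc17, another inhibitor with a whey acidic protein domain, was listed at 363.3 and 402.66 FPKM in wild-type and 309.21 and 288.72 FPKM in TIF1a-deficient cells, log2 ratios of -0.23 and -0.48 that are opposite in sign to those of Slpi.

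Beside Colec12, the scavenger receptor Msr1 had log2 ratios of knockout to wild-type of -0.05 and 0.01. Marco, a scavenger receptor of the same class, was listed at 19.04 and 23.19 FPKM in wild-type and 29.76 and 32.29 FPKM in TIF1a-deficient cells (log2 ratios of 0.64 and 0.48), above the fold only without IL-4. Around Wfs1, 16 genes of endoplasmic reticulum stress and calcium handling were used, and their median log2 ratios of knockout to wild-type were -0.03 and -0.07. The calcium channel Itpr1 alone was above 1.5-fold, with IL-4 (log2 ratio of 0.81), and its transcript is long (9877 bases). The chaperone Hspa5 had ratios of -0.03 and -0.10, Ddit3, the transcription factor CHOP, had -0.16 and -0.26, and Xbp1 had 0.09 and 0.02 on the same scale. With IL-4, 5 of these 16 genes were higher by more than 1.5-fold in each genotype and 0 were lower by that much. Among the 5 was the disulfide isomerase Pdia4, at 31.71 FPKM without and 214.05 FPKM with IL-4 in wild-type cells.

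For Penk, 2 of the 10 opioid genes reached the minimum level. Cpe, the carboxypeptidase that trims neuropeptides, was listed at 4.52 and 5.57 FPKM in wild-type and 4.27 and 4.57 FPKM in TIF1a-deficient cells, and Ctsl, a protease able to cut proenkephalin, had log2 ratios of 0.33 and 0.05. The convertase Pcsk1 had at most 1 read in a library. The convertase Pcsk2 and the opioid receptors Oprm1, Oprd1 and Oprk1 had no reads in any library. For Fstl1, 10 genes of the follistatin and bone morphogenetic protein list were used. Without IL-4, 3 of them were lower in TIF1a-deficient cells by more than 1.5-fold and 0 were higher by that much. With IL-4, 2 were higher by more than 1.5-fold and 0 were lower by that much. The related matrix protein Sparc was listed at 21.05 and 19.9 FPKM in wild-type and 9.68 and 16.12 FPKM in TIF1a-deficient cells.

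For Flt1, 6 genes of the VEGF family reached the minimum. Vegfa, a ligand of VEGFR1, was listed at 16.29 and 7.77 FPKM in wild-type and 24.06 and 11.18 FPKM in TIF1a-deficient cells, log2 ratios of 0.56 and 0.52 between the genotypes, and was lower with IL-4, where Flt1 was higher. Kdr, the receptor VEGFR2, had log2 ratios of -0.11 and 0.13, and Nrp1, a coreceptor, had 0.07 and 0.31. With IL-4, the coreceptor Nrp2 was higher in TIF1a-deficient cells by more than 1.5-fold (0.75) and Vegfc was lower by more than 1.5-fold (-0.59). The ligand gene Pgf had no reads. For Wdr92, 0 of 10 genes of the R2TP and prefoldin-like complex were past 1.5-fold in either pair, and their medians were -0.19 and -0.21. Over all genes, 3.41% without and 7.04% with IL-4 were higher in TIF1a-deficient cells by more than 1.5-fold. The ATPases Ruvbl1 (-0.21 and -0.25) and Ruvbl2 (0.13 and -0.07) and the adaptor Rpap3 (-0.28 and -0.32) had ratios below the 1.16 and 1.44 of Wdr92. Wdr92 was chosen for a high ratio, which favours that order.

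Of 9 genes of retinoic acid handling and response, 0 were past 1.5-fold in one direction in both pairs. That count is near the shares over all genes, 1.22% higher and 0.93% lower. Rarb, a classical target of retinoic acid receptors, was listed at 1.34 and 3.06 FPKM in wild-type and 2.16 and 3.7 FPKM in TIF1a-deficient cells (log2 ratios of 0.65 and 0.27).

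**Figure D4:**
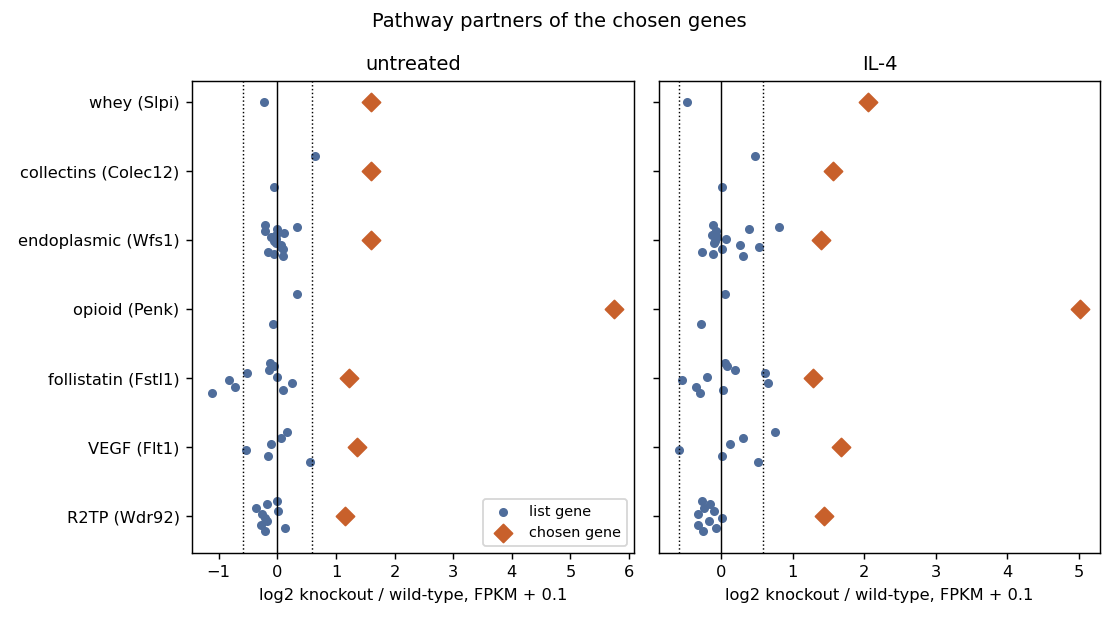
Log2 ratio of TIF1a-deficient to wild-type level on the FPKM + 0.1 scale (horizontal axis) for the genes of the lists around 7 of the 9 genes (blue points, 1 per gene that averaged 0.5 FPKM or more) and for the chosen gene itself (orange diamond), without IL-4 on the left and with IL-4 on the right. Vertical offsets within a list only separate the points and dotted lines mark 1.5-fold. The diamonds lie to the right of every point of their own list, an order that the choice of these genes by this ratio favours.

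Genes next to the 9 on the chromosome were also compared. Of 25 neighbouring or overlapping genes in the RefSeq annotation, 7 were listed with reads and 4 averaged 0.5 FPKM or more. Of these 4, 0 were past 1.5-fold between the genotypes in either pair. Among all genes, 3.41% without and 7.04% with IL-4 were higher by more than 1.5-fold, so 0 of 4 is near that share. Pno1, a factor of ribosome assembly, starts 304 bases from the start of Wdr92 on the other strand, so the printed Wdr92 stretch fills most of the gap between them. It was listed at 33.94 and 39.11 FPKM in wild-type and 29.24 and 35.5 FPKM in TIF1a-deficient cells, log2 ratios of -0.21 and -0.14 beside 1.16 and 1.44 for Wdr92. On the other side of Wdr92, C1d had -0.16 and -0.19. Pan3, beside Flt1, had -0.03 and 0.28, and Gm14326, beside Zfp972, had -0.25 and 0.50. Gm14327, which overlaps Zfp972 on the other strand, had at most 0.4 FPKM. Whether counting used strand was not stated.

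Markers of macrophages and of other peritoneal cells were read beside these results, and since the libraries are bulk samples, a gene that is higher per cell and one that comes from more cells cannot be told apart. Of 7 macrophage markers, Lyz2 alone was past 1.5-fold in both pairs, with log2 ratios of -1.12 and -1.18. Lyz2 is also the gene of the Cre insertion, so its ratio is not read as cell number. Adgre1 (0.08 and 0.09) and Csf1r (-0.09 and 0.08) were near 0 and Mertk had 0.39 and 0.60. Mesothelial markers summed to 6.05 and 6.57 FPKM in wild-type and 2.94 and 4.15 FPKM in TIF1a-deficient cells. Of them Wt1 (log2 ratios of -1.06 and -1.35) and Lrrn4 (-1.18 and -1.11) were lower by more than 1.5-fold in both pairs. So were the fibroblast marker Dcn and, among markers of resident peritoneal macrophages, Prg4 (-0.71 and -0.59). The other resident markers were mixed. Gata6 had -0.40 and -0.79, Selp -0.14 and -0.29, F5 -0.30 and 0.25, Icam2 0.82 and -0.05, and Timd4 0.09 and 0.67. Markers of mast cells summed to 3.99 and 2.55 FPKM in wild-type and 5.99 and 4.54 FPKM in TIF1a-deficient cells. Cpa3 was above 1.5-fold in both pairs (1.02 and 1.21), from 19 and 15 reads in wild-type and 40 and 36 in TIF1a-deficient cells. Tpsb2, the other mast cell marker that averaged 0.5 FPKM or more, had 0.29 and 0.29. Endothelial markers, mostly Vwf, summed to 15.3, 11.6, 15.5 and 16.9 FPKM in the order wild-type untreated, wild-type IL-4, TIF1a-deficient untreated and TIF1a-deficient IL-4. In the same order neutrophil markers summed to 8.86, 5.15, 5.26 and 7.59 FPKM, nearly all from S100a8, and S100a9, Ly6g and Retnlg had no reads. B cell markers summed to 6.52, 5.7, 4.84 and 4.08 FPKM, T cell markers to 0.81, 0.54, 1.4 and 0.79 FPKM, eosinophil markers to 1.89, 1.06, 2.04 and 1.5 FPKM and markers of resident peritoneal macrophages to 11.3, 13.4, 9.68 and 10.7 FPKM. The part of cell composition in the levels of the 9 genes was not tested.

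**Figure D5:**
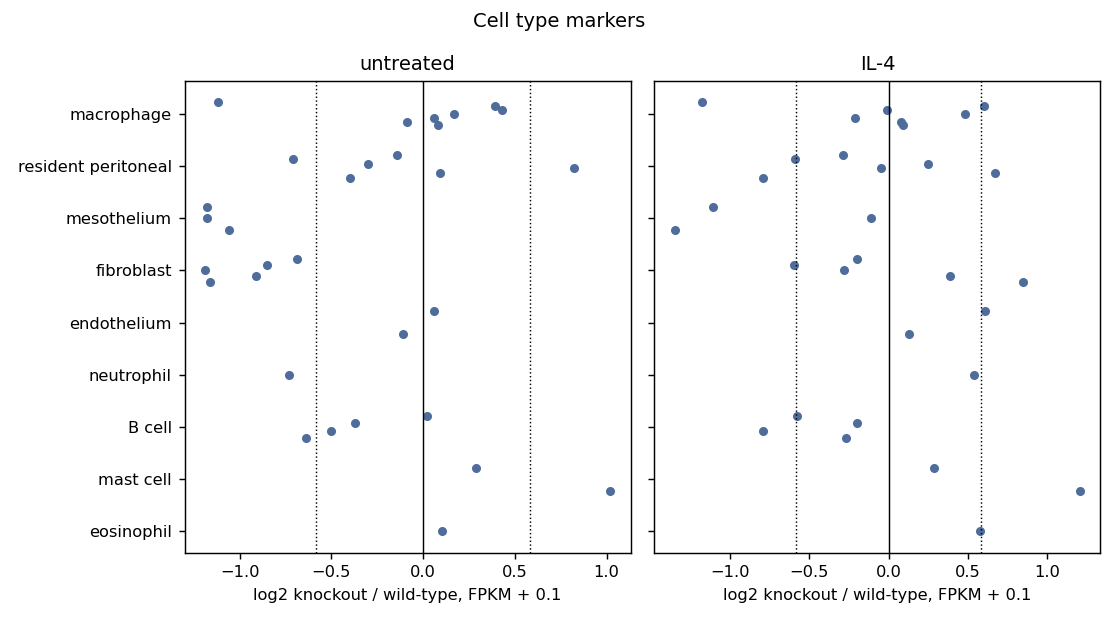
Log2 ratio of TIF1a-deficient to wild-type level on the FPKM + 0.1 scale (horizontal axis) for markers of cell types (rows, 1 point per gene that averaged 0.5 FPKM or more), without IL-4 on the left and with IL-4 on the right. Dotted lines mark 1.5-fold. The macrophage point on the far left is Lyz2, the gene of the Cre insertion (-1.12 and -1.18), and the rightmost mast cell point is Cpa3 (1.02 and 1.21).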

How the data were processed

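Total RNA of 4 mouse macrophage libraries, 1 per genotype and treatment, was sequenced on an Illumina HiSeq instrument. The authors aligned reads with Bowtie to GRCm38 (mm10) and estimated gene levels with RSEM, with versions not given in the sources used here. The deposited expected counts are reads that RSEM divided among genes, and were rounded for tests. The authors' FPKM values scale these counts by the library total and the effective length, and carry 2 decimals. Unlisted genes were set to 0. Gene symbols and positions came from a RefSeq table of GRCm38.p6, which matched 16365 of 16403 gene IDs. How often 50-base windows recur in other genes was counted on GENCODE transcripts.

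Samples were grouped by their labelled genotype and treatment. The 9 genes, the gene lists and the alternatives were chosen with earlier results of these data known. The lists came from general knowledge. Named genes were the 9, Trim24, Lyz2, list genes past 1.5-fold in one direction in both treatments or acting as ligands, receptors, partners or defining markers, neighbours on the chromosome, and the 8 other genes highest by the smaller log2 ratio. Arfgef3, Gpr35, Gm20362 and F13a1 were named after their values were seen, to show the ranks around Wdr92. Log2 ratios used FPKM + 0.1, which understates changes of low genes. Pairs with and without IL-4 were compared by two-sided Fisher's exact tests with Benjamini-Hochberg adjustment (scipy 1.17.1, statsmodels 0.14.6). Intervals are exact (Clopper-Pearson on the reads of a pair, or Poisson for a single library). Reads that carry no molecular identifier may be copies of one molecule, so intervals and floors cover counting error only. The alternatives were pseudocounts of 0.01 and 1, CPM, TMM scaling, removal of a lowess trend of the ratio over transcript length, a fold of 2, other read or level minimums, and edgeR 4.0.16 with an assumed biological coefficient of variation. Motifs were searched in the 250 bases before the transcript start that the RefSeq promoter table gives, which for Flt1 lies inside the span of the gene.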

Additional observations from a re-analysis of the deposited data

Results flagged for a closer look

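Slpi was the one gene of the 9 whose ratio of IL-4-treated to untreated level lay on different sides of 1 in the genotypes. The log2 ratio was -0.30 in wild-type cells, from 228 to 189 reads, and 0.16 in TIF1a-deficient cells, from 689 to 767 reads. Neither ratio passed an adjusted p of 0.05 in Fisher's exact test (0.095 and 0.13), except that with the length trend removed the wild-type log2 ratio was -0.45 with an adjusted p of 0.0067 in an exact binomial test (range over the alternatives 0.0067 to 0.17). Each genotype is 1 pair of libraries, and the difference between the genotypes was not tested.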

How the results depend on the processing

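The 9 genes remained above 1.5-fold between the genotypes in both pairs under TMM scaling, CPM, a pseudocount of 0.01 and removal of the length trend. With a pseudocount of 1 FPKM, 8 of them were above it without IL-4 (not Flt1), and with at least 10 reads required in each library 7 could be used and 7 were above it. Of 9 genes, 2 were called for IL-4 in wild-type cells, and 1 with a fold of 2 and 1 with edgeR at an assumed coefficient of variation of 0.2 or 0.4, in each edgeR fit Flt1. In TIF1a-deficient cells 5 were called, and 1 with a fold of 2, 2 with edgeR at 0.1 (Flt1 and Gm12505) and 1 at 0.2 or 0.4 (Flt1). Of 180 alternative values for single genes, 171 stayed within the 95% counting error of the reported genotype ratio or kept the direction and call of the IL-4 response, 6 genotype ratios moved by more than that error, 2 calls were lost and 1 was gained. No value changed sign. Removal of the length trend moved the genotype log2 ratio with IL-4 to 1.34 for Wfs1, 1.40 for Flt1, 1.84 for Zfp972 and 2.28 for Gm12505, and a pseudocount of 1 moved it to 3.12 for Penk and 1.44 for Flt1. Low levels moved with the pseudocount by more than 1.5 times. With 1 FPKM in place of 0.1 the untreated genotype log2 ratio was 2.65 for Penk (9.04 with 0.01) and 0.38 for Flt1, and the IL-4 log2 ratio in wild-type cells was 1.88 for Flt1 and 0.25 for Penk (4.32 with 0.01). Without the length trend the IL-4 log2 ratio of Zfp972 in wild-type cells was 0.17. The call of Wdr92 in TIF1a-deficient cells was lost with either alternative (0.58), and that of Gm12505 in wild-type cells was gained with TMM scaling (0.59). No paired analysis was possible because each group holds 1 library, and leaving out a library was not run for the same reason. Depth limited Penk in wild-type cells and untreated Flt1.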
